A study of Mus musculus with 24 samples.

Results

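Siglecf-positive tumor neutrophils were chosen by measured values, the RNA counts of a few genes in each cell. Members were barcodes with at least 2 unique molecular identifiers (UMIs, each standing for 1 captured transcript) of Siglecf and Ltc4s together, at least 1 UMI of the neutrophil receptors Csf3r, Il1r2, and Cxcr2, no Retnlg, fewer than 10 C1qa, C1qb, and C1qc UMIs per 10000, and no Cd3d, Cd3e, or Cd3g. Only barcodes with at least 500 UMIs, at least 200 genes, and under 10% mitochondrial UMIs were considered. Of 144994 barcodes, 132845 passed these limits, and 2596 of them (1.954%) were members. Each of the 16 libraries held between 53 and 261 members.

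The study implanted Panc02 cells, a mouse pancreatic cancer line, under the skin of wild-type male C57BL/6 mice aged 6 to 7 weeks. Tumors were collected on day 38 and read by 5′ single-cell RNA-Seq. Of the 8 treatments, 4 included PancVAX, a neoantigen peptide vaccine given on days 12 and 19 with the adjuvant AddaVax and a STING agonist, where the other mice received PBS, so that peptides and adjuvants cannot be told apart. In each of these arms, mice received isotype antibodies (Isotype Control or PancVAX), Anti-PD-1 repeatedly from day 12, Anti-CTLA-4 on days 15 and 22, or Anti-PD-1 + Anti-CTLA-4. Tumors were pooled within a treatment. Each treatment had 1 library of the dissociated whole tumor and 1 of cells enriched by Percoll density separation, sequenced as separate batches. Whether both libraries of a treatment came from the same mice was not stated. They are called 1 pool here, so each treatment counted as 1 pool. Each agent was compared over 4 pools with it and 4 without it. The *P* values of these comparisons measured the spread between pools, not between mice.

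Neutrophils are short-lived granulocytes that leave the blood for inflamed tissue and tumors, where they are drawn by chemokines and kept alive by colony-stimulating factors. In mouse lung tumors, neutrophils that carry the sialic acid-binding receptor Siglec-F, better known as an eosinophil marker, are described as longer-lived and tumor-promoting. Ltc4s makes the lipid mediator leukotriene C4, Csf3r is the receptor for granulocyte colony-stimulating factor, and Il1r2 is a decoy receptor that takes up interleukin-1 without signaling.

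The gate was met through both selecting genes in 1283 members (49.42%), through Siglecf alone in 316 (12.17%), and through Ltc4s alone in 997 (38.41%). The label is therefore borne by a Siglecf UMI in only part of the members. Of the receptors, Il1r2 was seen in 98.81% of members, Csf3r in 59.94%, and Cxcr2 in 22.3%. At the edge of the rule, 1972 barcodes that met every other condition had 1 UMI of Siglecf and Ltc4s, and 46 were left out for a single Retnlg UMI. Within the limits on depth and MHC class II given next, cells just inside (a sum of 2, 924 cells) and just outside (a sum of 1, 1666 cells) had similar levels of genes the rule did not name. Il1a stood at 1012 and 827 CPM (UMIs summed over the cells and scaled to a fixed total), Il1b at 11058 and 10501 CPM, and S100a9 at 18902 and 16953 CPM. Cells with neither gene were farther from the members, at 466 CPM of Il1a, 8207 CPM of Il1b, and 10969 CPM of S100a9 (4933 cells). Median UMIs per cell were 1542, 1376.5, and 1198 at a sum of 2, 1, and 0, and the part of depth was not tested.

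The members were not 1 kind of cell, and the label held for most but not all of them. S100a8 and S100a9, the abundant calcium-binding proteins of neutrophils, were checked as markers that the rule had not used. A core of 2206 members (84.98%) had at most 10000 UMIs and fewer than 100 UMIs of H2-Aa, H2-Ab1, H2-Eb1, and Cd74 (the antigen-presenting MHC class II molecules and their chaperone) per 10000. Of these, 88.67% had an S100a8 or S100a9 UMI at a median of 1689 UMIs per cell, where C1q-high macrophages had one in 2.69% of cells at a median of 5853 UMIs.

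A class II-high set of 219 members (8.44%) had 100 or more such UMIs per 10000 and a median of 13090 UMIs, and 11.42% of its cells had S100a8 or S100a9. In 72.6% of them no Siglecf UMI was found. Summed over the set, Cd74 reached 30283 CPM, H2-Oa 447 CPM, Plet1 733 CPM, and Mgl2 366 CPM, where the core held 499, 4.0, 0.2, and 2.5 CPM of these genes. Csf3r was at 11.9 CPM against 673 CPM in the core, while Il1r2 was at 1812 against 7432 CPM. These values go against the neutrophil label, and the set is called here by its class II genes.

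The remaining 171 members (6.59%) exceeded 10000 UMIs with little class II. Their median was 23692 UMIs, and scrublet, which scores barcodes against simulated mixtures of cells, marked 36.26% of them as doublets against 0.32% of the core. At this greater depth, 81.87% of them had an S100a8 or S100a9 UMI. With cells thinned to 1000 UMIs each, S100a8 was found in 34.5% of deep, 78.2% of core, and 6.4% of class II-high cells. S100a9 was found in 42.7%, 82.5%, and 6.8% of the same sets. The 8 tumor and stromal markers (keratins, collagens, and endothelial genes) summed to 3020 CPM in this deep set and to 312 CPM in the core. Both small sets together supplied most of the members' RNA, since the core, with its shallow cells, gave 34.37% of the members' UMIs. The limits between the sets were chosen after these values were seen. Between 50 and 100 class II UMIs per 10000 there were 25 core cells and 24 deep cells, 22 members lay between 100 and 200, and 11 on either side within 2000 UMIs of the depth limit.

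**Figure D1:**
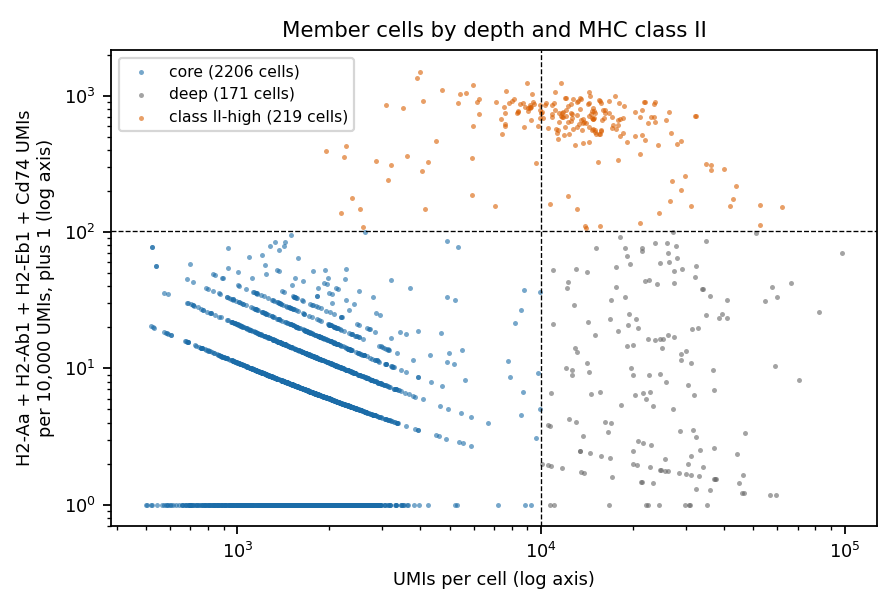
Each point is 1 member cell, by its UMIs (x axis, log scale) and its MHC class II UMIs per 10000 plus 1 (y axis, log scale), with dashed lines at 10000 UMIs and at 100 per 10000. The 2206 core cells fill the lower left, the 219 class II-high cells lie on top, and the 171 deep cells lie at the lower right.

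Markers of other cell types were counted in the core, in part without the genes that the rule had fixed. Of the 8 eosinophil markers, Epx, Prg2, Ear1, Ear6, and Alox15 had no UMI in any core cell, and the list summed to 5.4 CPM. Of the 7 mast cell markers, Fcer1a and Ms4a2 had none, and the list summed to 4.0 CPM. The 6 macrophage markers outside the rule summed to 338 CPM, against 13368 CPM in C1q-high macrophages. With the 3 C1q genes, which the rule capped, the list ranged from 308 to 716 CPM over the 16 libraries. Summed monocyte and B cell markers were not low by comparison with the macrophages, but the sums rested on few genes. The 5 monocyte markers summed to 795 CPM in the core and 1014 CPM in macrophages. Plac8 (611 CPM) and Fn1 (175 CPM) made up most of the sum in the core. Ly6c2, Ccr2, and Ms4a4c stood at 5.7, 0.5, and 2.5 CPM there. The 4 B cell markers summed to 142 CPM in the core and 183 CPM in macrophages. Ighm (139 CPM) made up most of the sum in the core, where Cd79a, Cd79b, and Ms4a1 stood at 2.2, 0.5, and 0.5 CPM. The sums thus say little about the other genes of either list. The 7 dendritic cell markers summed to 6.4 CPM and the 4 red cell markers to 11.9 CPM, with a median of 0.0 CPM over libraries and 219 CPM in 1 whole-tumor library. The 7 T and NK cell markers other than Cd3 genes summed to 41.0 CPM, above the 13.0 CPM of macrophages. No T cell receptor contig was found in 1519 members of the Percoll libraries, which allows a share of up to 0.243% (95% exact binomial interval), and none in 4331 macrophages, where 65.7% of Cd3-positive Percoll cells had one. Both the members and the macrophages had been chosen without Cd3 UMIs, so the rule itself removed most cells that could carry a contig. Ly6g, the usual surface marker of mouse neutrophils, was also without a UMI in the core. The 11 neutrophil markers outside the rule summed to 41673 CPM in the core, 29001 CPM in the cells with neither selecting gene, 114464 CPM in Retnlg-positive neutrophils within the same limits, and 68.2 CPM in macrophages.

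Core cells were next set beside Retnlg-positive neutrophils, a smaller set, and then beside the larger set with neither Siglecf, Ltc4s, nor Retnlg, both taken within the same limits on class II and depth (968 and 4933 cells). Retnlg encodes a resistin-like protein that is abundant in mature neutrophils of the blood. Because the rule chose both kinds of cell by their genes, their differences are a description of CPM per library and no test was made. Siglecf (ENSMUSG00000039013) lay between 338 and 736 CPM in core cells (median 602 over 16 libraries) and between 0.0 and 49.8 CPM in Retnlg-positive neutrophils. Ltc4s (ENSMUSG00000020377) lay between 899 and 1591 CPM, against 0.0 to 37.7 CPM. Neither gene's ranges overlapped, as the rule required.

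Among secreted factors, core cells held more RNA of several inflammatory ligands. Ccl3, which attracts monocytes and T cells, lay between 1558 and 7594 CPM in core cells (median 4976) and between 185 and 2136 CPM in Retnlg-positive neutrophils (median 1035), and was higher in the core in 16 of 16 libraries. The median log2 ratio within libraries was 2.37 for Ccl3 and 2.35 for its relative Ccl4, 2.03 for Tnf, and 1.57 for Csf1, the macrophage growth factor, each higher in all 16 libraries. Il1a, which encodes interleukin-1α, had a median of 897 CPM against 235 CPM and was higher in 15 of 16 libraries. The ligands did not all follow this pattern. Il1b (median log2 ratio 0.09) and the neutrophil attractant Cxcl2 (0.24) were close to level, and Cxcl3, a second neutrophil attractant, was lower in the core in every library (-2.46).

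The genes with the largest ratios included further membrane and signaling proteins. Scimp, an adaptor of MHC class II and Toll-like receptor signaling, had a median of 246 CPM in core cells and 17.0 CPM in Retnlg-positive neutrophils. Ffar2, a receptor for short-chain fatty acids, had 118 and 4.2 CPM, and Ms4a6d 138 and 0.0 CPM. The calcineurin inhibitor Rcan1 stood at 183 and 0.0 CPM, the early activation marker Cd69 at 219 and 32.1 CPM, and the nuclear receptor Nr4a2 at 596 and 92.6 CPM. All 6 were higher in the core in 16 of 16 libraries. The survival factor Bcl2a1d had a log2 ratio of 1.36, whereas the survival factor Mcl1 was level (-0.05).

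Several granule and secreted proteins were lower in the core. Slpi, a protease inhibitor, had a median of 166 CPM in core cells and 3771 CPM in Retnlg-positive neutrophils, the iron-binding granule protein Lcn2 45.5 and 1078 CPM, and Ccl6 54.5 and 2032 CPM. Mmp8, a granule collagenase, had a median of 0.0 against 91.7 CPM, and Padi4, the enzyme that citrullinates histones in extracellular traps, 0.0 against 58.7 CPM. None of these 5 genes was higher in the core in any library. Other granule genes ran the other way. With cells thinned to 1000 UMIs each, Mmp9 was found in 48.6% of core cells and 37.2% of Retnlg-positive neutrophils. Ltf was found in 3.6% and 2.1%, and Prtn3 in 2.0% and 0.6%. For these shares the Retnlg-positive neutrophils were taken without the limits on depth and class II. S100a8 and S100a9 were present in both kinds of cell at a median log2 ratio of -1.59 each, and Cxcr2, the receptor for Cxcl2, at -1.21, although Cxcr2 was part of both gates.

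Cells with neither Siglecf nor Ltc4s lay between these sets for many of the same genes. They were shallower, at medians of 1198 UMIs and 600 genes per cell against 1689 and 854 in the core, and the part of depth was not tested. They carried more stromal marker RNA, 1208 CPM against 312 CPM in the core, and more monocyte marker RNA, 1944 against 795 CPM. Macrophage (551 against 338 CPM, without C1q genes), dendritic cell (140 against 6.4 CPM), T and NK cell (98.4 against 41.0 CPM), and mast cell markers (86.4 against 4.0 CPM) were higher too, and the part of these in the differences was not tested. Ccl3 lay between 633 and 4224 CPM in them (median 1667), lower than in the core in 16 of 16 libraries (median log2 ratio of core to these cells 0.92). Rcan1 had a median of 36.2 CPM, Ms4a6d 47.2 CPM, Scimp 120 CPM, Nr4a2 216 CPM, and Il1a 506 CPM, and the core was higher in all 16 libraries for each. Il1b (log2 ratio 0.29) and Cxcl2 (0.19) again differed little. Slpi, at a median of 1089 CPM, and Ccl6, at 585 CPM, were higher in these cells than in the core in every library, and Cxcl3 in 15 of 16. S100a8 and S100a9 took the opposite order from the one beside Retnlg-positive neutrophils, since the core was higher than these cells in all 16 libraries (log2 ratios 0.53 and 0.60).

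**Figure D2:**
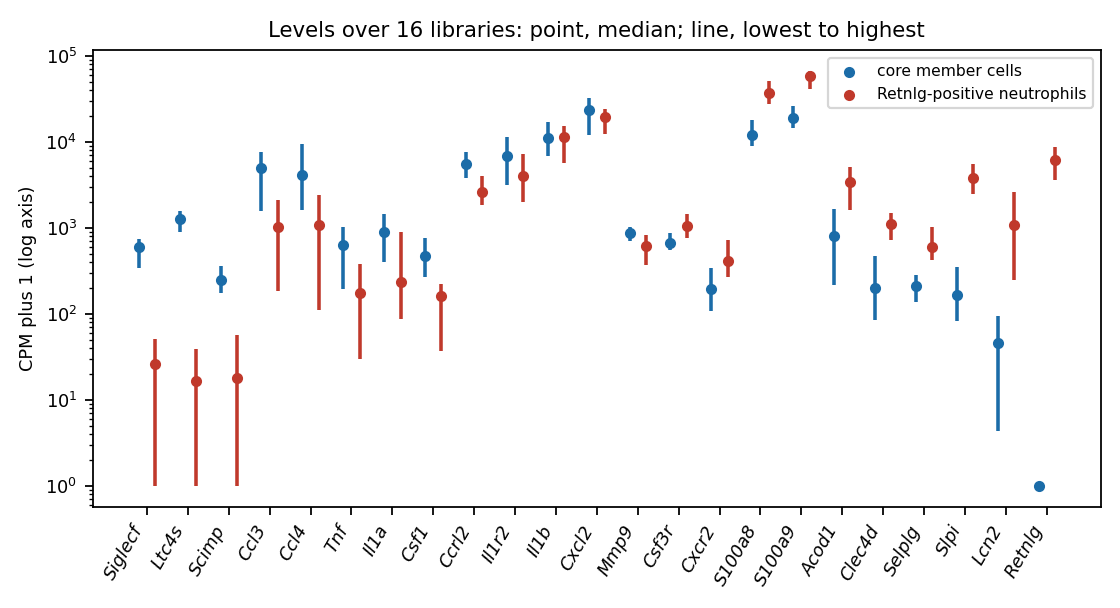
CPM plus 1 (y axis, log scale) of 23 genes in core cells (blue) and in Retnlg-positive neutrophils within the same limits (red); points are medians over 16 libraries and lines run from the lowest to the highest library. The lines of Siglecf, Ltc4s, and Scimp lie above those of the other neutrophils, Il1b and Cxcl2 overlap, and Slpi and Lcn2 lie below.

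The first comparison across treatments asked whether the share of members, with class II-high and deep cells included, changed with an agent. A pool's share was the mean of its 2 libraries. It was 2.17% in Isotype Control, 1.83% in Anti-PD-1, 1.04% in Anti-CTLA-4, and 1.55% in Anti-PD-1 + Anti-CTLA-4. With PancVAX added to the same antibodies it was 2.21%, 2.39%, 2.77%, and 1.93%. The share was higher with PancVAX in 4 of 4 antibody settings, but the ranges overlapped (1.93% to 2.77% with PancVAX, 1.04% to 2.17% without). In Percoll libraries alone it was higher in 2 of 4 (2.59% against 2.12%, exact permutation *P* = 0.229) and in whole tumors alone in 4 of 4 (2.05% against 1.17%, exact permutation *P* = 0.0571). In whole tumors without PancVAX, 6064 of 8367 deposited barcodes passed the limits in Anti-PD-1, 9611 of 11673 in Isotype Control, and 8724 of 9898 in Anti-CTLA-4. These were 7880 of 8399, 6698 of 7323, and 11114 of 11830 with it, larger parts in each. Anti-PD-1 + Anti-CTLA-4 stood at 7767 of 8468 without and 8089 of 8836 with it. The part of this in the share was not tested.

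The mean was 2.32% ± 0.353 (SD, n = 4 pools) with PancVAX and 1.65% ± 0.478 (n = 4) without it, a difference of 0.675 percentage points that did not pass the threshold (exact two-sided permutation *P* = 0.0571 over 70 splits, smallest possible 0.0286, adjusted over the 3 agents 0.171). In core cells alone the difference was 0.639 points (2.01% against 1.37%, exact permutation *P* = 0.0571, adjusted 0.171). When a Siglecf UMI was also required of the members, it was 0.568 points (1.50% against 0.936%, exact permutation *P* = 0.0286, adjusted 0.0857). Most of the difference lay in the Anti-CTLA-4 setting, where the whole-tumor library without vaccine had the lowest share of all, 0.608%. Anti-PD-1 (1.92% against 2.05%, exact permutation *P* = 0.771) and anti-CTLA-4 (1.82% against 2.15%, exact permutation *P* = 0.457) gave smaller differences with overlapping ranges in this share, the latter from -0.642 points without the PancVAX + Anti-CTLA-4 pool to -0.0653 without the Anti-CTLA-4 pool. The sign of the anti-PD-1 difference was not stable. It was 0.0686 points in whole tumors and ran from -0.459 to 0.118 with 1 pool left out. A share can also move when other cells become more or fewer. As a share of all cells in a wider neutrophil gate that ignored Siglecf, Ltc4s, and Retnlg, members made up 23.3% with PancVAX and 20.6% without (exact permutation *P* = 0.171). Anti-CTLA-4 gave the larger difference in this share, 20.1% with it and 23.8% without, lower in 4 of 4 matched pools (-3.68 points, exact permutation *P* = 0.0857).

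**Figure D3:**
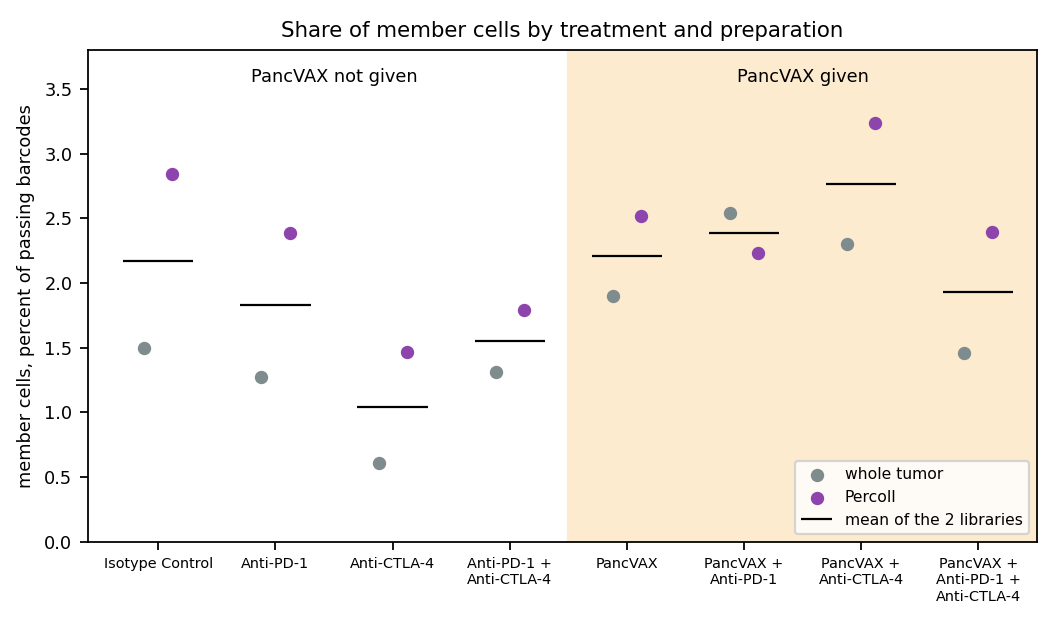
Member cells as percent of passing barcodes (y axis) for the 8 treatments (x axis); gray points are whole-tumor libraries, purple points Percoll libraries, and bars the mean of both. The bars run from 1.04% in Anti-CTLA-4 to 2.77% in PancVAX + Anti-CTLA-4, and 7 of 8 Percoll points lie above the whole-tumor point of their treatment.

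Percoll libraries held more members than whole-tumor libraries of the same treatment in 7 of 8 pairs. The median was 2.39% (1.47% to 3.23%) after Percoll and 1.48% (0.608% to 2.54%) in whole tumors, and the mean difference was 0.747 points (exact sign-flip permutation *P* = 0.0156). In core cells alone it was 0.684 points (exact sign-flip permutation *P* = 0.0156). As a share of the wider neutrophil gate the difference in members was 0.249 points (exact permutation *P* = 0.797), so the greater yield was not seen relative to other cells of that gate. The effect of no agent on the share differed between preparations beyond the spread of the pools (PancVAX -0.403 points, exact permutation *P* = 0.343).

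The wider gate of 11362 cells allowed the selecting genes themselves to be compared between treatments. It set no limit on class II or depth, so it also held class II-high and deep cells. Within the core limits Siglecf stood higher, between 184 and 276 CPM over all pools. Siglecf lay between 74.0 and 121 CPM in the 4 pools with PancVAX and between 51.2 and 78.4 CPM in the 4 without, ranges that overlapped slightly. The log2 difference was 0.61 ± 0.15 (SE) and did not pass (edgeR quasi-likelihood, Benjamini-Hochberg adjusted *P* = 0.106). Without the PancVAX + Anti-PD-1 pool it passed (0.744, edgeR adjusted *P* = 0.0348). DESeq2 gave 0.615 with an adjusted *P* of 0.0082, and among wider-gate cells within the core limits the difference was 0.17 (edgeR adjusted *P* = 0.98). Ltc4s lay between 133 and 188 CPM with PancVAX and 110 and 157 CPM without (log2 difference 0.25, edgeR adjusted *P* = 0.131). Within the core limits the sign turned (-0.142, edgeR adjusted *P* = 0.98). With anti-CTLA-4 the log2 difference of Ltc4s was -0.38 (edgeR adjusted *P* = 0.374), and -0.042 within the core limits. Retnlg varied from 132 to 415 CPM between pools with no call for any agent.

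Genes were then compared between treatments within the members, with a call at an adjusted *P* below 0.05 in edgeR and a log2 difference beyond 0.5. Over all members, 3 of 9792 genes were called for PancVAX (0.0306%), 0 for anti-PD-1 (0.0%), and 1 for anti-CTLA-4 (0.0102%). Genes with an unadjusted *P* below 0.05 numbered 1504, 309, and 590 in the same order, the anti-PD-1 count being below the 5% of genes that chance alone gives, and DESeq2 called 2 for anti-PD-1. The copy of Ptp4a1 listed as ENSMUSG00000117310, a gene for a phosphatase whose symbol 2 identifiers share, rose with PancVAX from 57.6 to 84.8 CPM without to 101 to 141 CPM with it (log2 difference 0.82 ± 0.12, adjusted *P* = 0.0464). Rab11fip1, a regulator of recycling vesicles, rose from 32.6 to 52.9 CPM to 72.1 to 119 CPM (0.95 ± 0.14, adjusted *P* = 0.0464). For both genes all 4 pools with vaccine lay above all 4 without. Both calls were lost in core cells (0.54 and 0.62, adjusted *P* = 0.209 and 0.103), with doublets left out, with Siglecf required, and in 16 libraries, and 2 of the 8 fits with 1 pool left out kept both. They were also lost with pools matched on the other agents as a block (adjusted *P* = 0.0824 for each). Trmt61b, which is scarcer and named after its values were seen, was the other PancVAX call (log2 difference 1.33). The number of PancVAX calls ran from 0 to 363 as each pool was left out in turn, with 363 without the Anti-PD-1 + Anti-CTLA-4 pool and 192 without the PancVAX + Anti-PD-1 + Anti-CTLA-4 pool.

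The anti-CTLA-4 call was Serping1, the complement C1 inhibitor, also named after its values were seen. It lay between 21.5 and 30.7 CPM with the antibody and between 53.0 and 78.4 CPM without (-1.41, adjusted *P* = 0.0497). In the core cells alone its sign was the opposite (3.51), with 150 CPM in the Anti-CTLA-4 pool and 18.2 CPM in Isotype Control. Since the deep and class II-high cells supplied most of the RNA, the treatments were compared again in core cells, a choice made after the mixture was seen.

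In core cells 12 of 5301 genes were called for PancVAX (0.226%), 3 of them higher and 9 lower. An alternative fit kept the 16 libraries apart with preparation as a covariate, and so counted the 2 libraries of a treatment as separate replicates. It called 11 genes with the balance turned, 7 higher and 4 lower. Cxcl3, AW112010, mt-Nd2, mt-Cytb, and mt-Co1 lost their calls in it. Nr4a2, a nuclear receptor of the immediate early response, lay between 716 and 809 CPM in the 4 pools with PancVAX and between 346 and 639 CPM without, with no overlap (log2 difference 0.57 ± 0.12, adjusted *P* = 0.0401, but 0.0555 with matched pools as a block). Cxcl3 rose by 0.82 ± 0.17 (adjusted *P* = 0.0401), from 75.0 to 143 CPM without to 131 to 348 CPM with vaccine, with overlapping ranges, and Tinf2, of the telomere-capping complex, rose by 1.00. The lower genes included Plac8 (484 to 604 CPM against 653 to 957 CPM, -0.54 ± 0.10, adjusted *P* = 0.0308), Mt2, a metallothionein (35.5 to 64.0 against 80.7 to 178 CPM, -1.09 ± 0.21, adjusted *P* = 0.0308), and AW112010, an interferon-inducible transcript (-0.90). Plac8 and Mt2 did not overlap between the groups. The monocyte markers, of which Plac8 is one, summed to between 584 and 870 CPM with PancVAX and between 701 and 1174 CPM without. Plac8 itself made up most of these sums, so they move with it and cannot show a change in other monocyte RNA. The part of such RNA was not tested. Col3a1, a fibroblast collagen (4.73 to 80.0 against 0.0 to 299 CPM), and the heat shock gene Hspa1a (2.36 to 21.7 against 8.83 to 67.7 CPM) were also lower, with overlapping ranges. Without the Anti-CTLA-4 pool the difference of Col3a1 was -0.74 (adjusted *P* = 0.856). The stromal markers summed to between 151 and 419 CPM with PancVAX and between 80.2 and 1298 CPM without, and their part was not tested.

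The remaining PancVAX calls were mitochondrial genes. Of 13 mitochondrially encoded genes, 4 fell (mt-Nd2, mt-Cytb, mt-Co1, and mt-Nd4), none rose, and the median was -0.51 against 0.0 over all genes. The list lay lower with the other agents too, at a median of -0.45 with anti-PD-1 (1 called) and -0.34 with anti-CTLA-4 (none called). In whole tumors the median mitochondrial share of core cells lay between 1.39% and 3.68% with PancVAX and between 2.57% and 6.71% without. After Percoll it lay between 0.525% and 0.656% in all treatments. The part of cell quality in the mitochondrial calls was not tested. mt-Cytb, a subunit of respiratory complex III, lay between 2126 and 3434 CPM with PancVAX and 2810 and 5033 CPM without. These calls depended on the preparation and on single pools, and mt-Nd4 was lost with matched pools as a block (adjusted *P* = 0.0659). In Percoll libraries alone none of the 10 named genes that could be tested passed, in whole-tumor libraries alone 3 of 11 did, and leaving out the Anti-PD-1 + Anti-CTLA-4 pool left none of the 11.

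Genes of the known Siglecf-high neutrophil program did not pass with PancVAX. All 16 were measured, none was called, and their median log2 difference was -0.04. Only 0.226% of all genes tested were called, so 16 genes without a call are no result about the program. Ccl3 lay between 4197 and 5540 CPM with vaccine and 4244 and 6482 CPM without (-0.31, adjusted *P* = 0.577), Il1a showed a difference of 0.30 (adjusted *P* = 0.447), and Tnf one of 0.38 (adjusted *P* = 0.204). Of 27 interferon-stimulated genes tested and of 10 T cell suppression genes tested, none passed with PancVAX, with medians of -0.21 and 0.23. The same limit holds for these short lists.

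With anti-PD-1, 9 of 5301 genes were called in core cells (0.17%), 1 higher and 8 lower. The largest was Col3a1, between 0.0 and 7.81 CPM with the antibody and between 12.8 and 299 CPM without (-4.09 ± 0.42, adjusted *P* = 1.48e-05). Sparc, a matrix protein of fibroblasts, fell by 2.09 (adjusted *P* = 0.000501), and Col1a1, Serping1, Lbp, Clec3b, and Gpx3, at lower levels, fell too. The mitochondrial gene mt-Co1 fell by 0.59 (adjusted *P* = 0.0279), and Saa3, an acute phase protein, rose. Most of these genes are not neutrophil genes. The tumor and stromal markers, none of them at 0 over the core, summed to between 80.2 and 222 CPM in the pools with anti-PD-1 and between 175 and 1298 CPM without, and their part in these calls was not tested. With 1 pool left out, 4 genes (without the PancVAX + Anti-PD-1 + Anti-CTLA-4 pool) to 28 genes (without the PancVAX pool) were called, and Col3a1 and Sparc passed each time. In 16 libraries with preparation as a covariate, Sparc (adjusted *P* = 0.196) and mt-Co1 (0.498) did not pass, nor did they in Percoll libraries alone. Col3a1 could not be tested in either of these settings. In whole tumors alone none of the 3 genes passed (Col3a1 adjusted *P* = 0.477). Over all members Col3a1 and Sparc had the opposite sign (0.32 and 0.05, neither called).

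With anti-CTLA-4, 10 of 5301 genes were called in core cells (0.189%), 8 higher and 2 lower. None was called higher in 16 libraries with preparation as a covariate (1 lower, Irf7) or in Percoll libraries alone (3 lower). The lower genes were both interferon-stimulated. Irf7, the transcription factor that amplifies type I interferon, lay between 50.3 and 70.3 CPM with the antibody and between 79.5 and 169 CPM without (-1.03 ± 0.21, adjusted *P* = 0.0415, but 0.0595 with matched pools as a block). Slfn4, of the schlafen family, lay between 37.4 and 52.1 CPM with it and between 77.0 and 147 CPM without (-1.15 ± 0.24, adjusted *P* = 0.0485). For both genes the groups did not overlap. The 8 dissociation stress genes lay the other way, with a median of 0.41 and Hspa1a called, and their part was not tested. Of the 27 interferon-stimulated genes tested, these 2 fell, none rose, and 25 did not pass, with a median of -0.51 against 0.0 over all genes. Isg15 had a log2 difference of -0.35 (adjusted *P* = 0.719) and Ifit3 one of -1.48 (adjusted *P* = 0.114).

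Cxcl3 rose with anti-CTLA-4 as with PancVAX, by 0.94 ± 0.16 (adjusted *P* = 0.00763). It was lowest in Isotype Control at 75.0 CPM and highest in PancVAX + Anti-CTLA-4 at 348 CPM. The complement gene C3 rose by 1.09 (52.1 to 117 CPM against 31.8 to 47.1 CPM, adjusted *P* = 0.0595 with matched pools as a block), and Col3a1, Sparc, Serping1, Lbp, Clec3b, and Hspa1a rose as well. The stromal markers summed to between 151 and 1298 CPM with anti-CTLA-4 and between 80.2 and 275 CPM without, with the highest sum in the Anti-CTLA-4 pool. Their part in the rises of C3 and the matrix genes was not tested. Over all members Col3a1 had a log2 difference of -1.83 and Sparc one of -0.50, neither of them called. Without the PancVAX pool none of the 6 named anti-CTLA-4 genes passed, and within whole tumors none of the 5 that could be tested did.

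**Figure D4:**
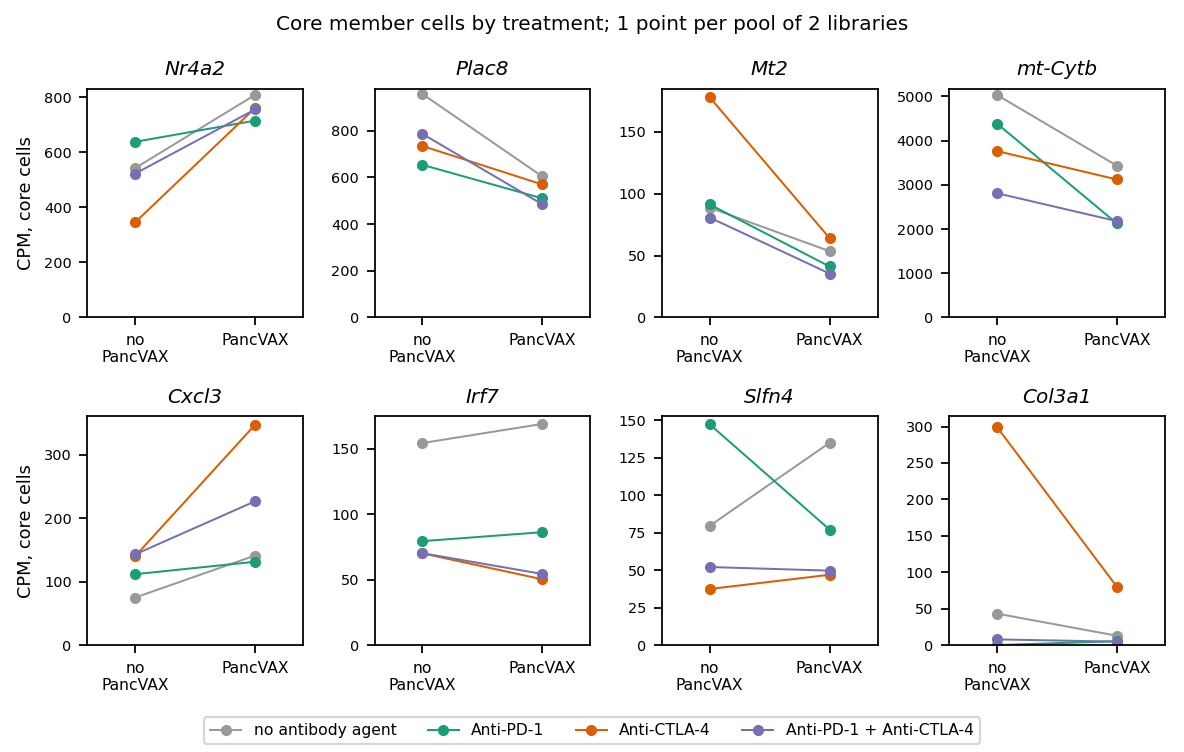
CPM in core cells (y axes, from 0) of 8 genes without and with PancVAX (x axes), 1 point per pool; lines join the pools that received the same antibodies. Nr4a2 is higher and Plac8 and Mt2 are lower with PancVAX in every pair, Irf7 and Slfn4 lie low in the 4 pools with anti-CTLA-4, and Col3a1 stands at 299 CPM in the Anti-CTLA-4 pool.

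The preparations were compared within treatments in core cells. Each treatment's Percoll library was compared with its whole-tumor library over 8 pairs, a comparison added after the data were seen. Preparation, sequencing batch, and any difference in the mice cannot be told apart. Of 3118 genes tested, 270 were higher after Percoll (8.66%) and 152 lower (4.87%), and the median over all genes was -0.02. The median number of UMIs per core cell was alike (1596 in whole tumors, 1632 after Percoll, over 8 libraries each), whereas the median mitochondrial share of core cells lay between 1.39% and 6.71% in whole tumors and between 0.525% and 0.656% after Percoll, lower in 8 of 8 pairs (exact sign-flip permutation *P* = 0.00781, the smallest possible).

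The interleukin-1 family was split. Il1b lay between 12641 and 19568 CPM in whole tumors (median 16867) and between 7323 and 12253 CPM after Percoll (median 8083), and fell in every pair (log2 difference -0.94 ± 0.08, adjusted *P* = 1.51e-11). Nlrp3, the sensor of the inflammasome that matures interleukin-1β, rose from a median of 447 to 719 CPM (1.00 ± 0.11), and Il1rn, the interleukin-1 receptor antagonist, rose from 1174 to 1819 CPM (0.66 ± 0.10). The decoy receptor Il1r2, a gene of the rule and so given without a call, had medians of 5118 and 10221 CPM. The alarmin Il1a showed a difference of 0.38, under the size required. Siglecf (medians 635 and 706 CPM) and Ltc4s (1443 and 1370 CPM), also genes of the rule, lay close together in both preparations.

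Several immediate early genes fell, while others rose. Btg2, an antiproliferative early gene, lay between 2655 and 3753 CPM in whole tumors and between 1199 and 1756 CPM after Percoll (-1.21 ± 0.08, adjusted *P* = 2.85e-14). Zfp36, which encodes the RNA-binding protein tristetraprolin that destabilizes cytokine transcripts, lay between 2807 and 5295 CPM and between 1167 and 2154 CPM (-1.23 ± 0.09). Neither gene overlapped between preparations, and both fell in 8 of 8 pairs. Junb (-0.82), Fos (-1.97), Fosb (-0.65), and Nr4a1 (-0.72) fell too, as did the NF-κB regulator Nfkbid (-0.84), the prostaglandin synthase Ptgs2 (-0.82), and G0s2, an inhibitor of fat breakdown (-1.74).

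Of the 18 AP-1 and NF-κB genes, 6 rose, 4 fell, and 8 did not pass, with a median of 0.29. Rel, an NF-κB subunit, rose from a median of 161 to 370 CPM (1.14 ± 0.13, adjusted *P* = 2.48e-08), and Nfkbia, the NF-κB inhibitor, from 3353 to 4973 CPM (0.68 ± 0.09). Jun, Nfkb1, Atf3, and Ier3 rose as well. Ccl3 rose in 8 of 8 pairs, from a median of 2832 to 6653 CPM (1.20 ± 0.20, adjusted *P* = 0.00345), and was the only one of 7 chemokine genes tested to pass.

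Among the genes with the smallest *P* values, Acod1, the enzyme that makes itaconate, rose from a median of 628 to 1610 CPM (1.33 ± 0.09, adjusted *P* = 2.54e-13). The receptor genes Lilr4b (1.25) and Lilrb4a (1.08), Cited2 (1.52), Tuba1c (1.49), Ccnl1 (0.91), and Wsb1 (1.53) rose in all 8 pairs. Lilr4b and Lilrb4a are close relatives whose reads may be shared, as are the similar tubulin genes, so their separate values are uncertain. Of 15 lysosome, iron, and oxidative stress genes, 7 rose and none fell, with a median of 0.48. They included the cystine transporter Slc7a11 (medians 432 and 967 CPM, 1.10 ± 0.10), ferritin heavy chain Fth1 (0.60), the autophagy adaptor Sqstm1 (0.78), and the cathepsins Ctsb (0.54) and Ctsl (0.64). Of 8 T cell suppression genes tested, Acod1, Arg2, and Havcr2 rose and Ptgs2 fell.

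All 12 mitochondrially encoded genes that were tested were lower after Percoll, and 11 passed, with a median of -1.85. mt-Nd4, a subunit of respiratory complex I, lay between 791 and 2409 CPM in whole tumors and between 334 and 511 CPM after Percoll (-1.79 ± 0.11, adjusted *P* = 2.4e-13). The keratins Krt8 (-1.05) and Krt18 (-0.98), which are tumor cell genes, fell as well, as did the monocyte marker Fn1 (medians 233 and 84.8 CPM, -1.72, adjusted *P* = 0.00293), the other tested monocyte marker not passing, and H2-Aa (medians 161 and 112 CPM, -0.63). Macrophage markers summed to between 308 and 716 CPM in whole-tumor libraries and 355 and 525 CPM in Percoll libraries, with none of 5 tested passing. The part of these in the other changes was not tested.

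**Figure D5:**
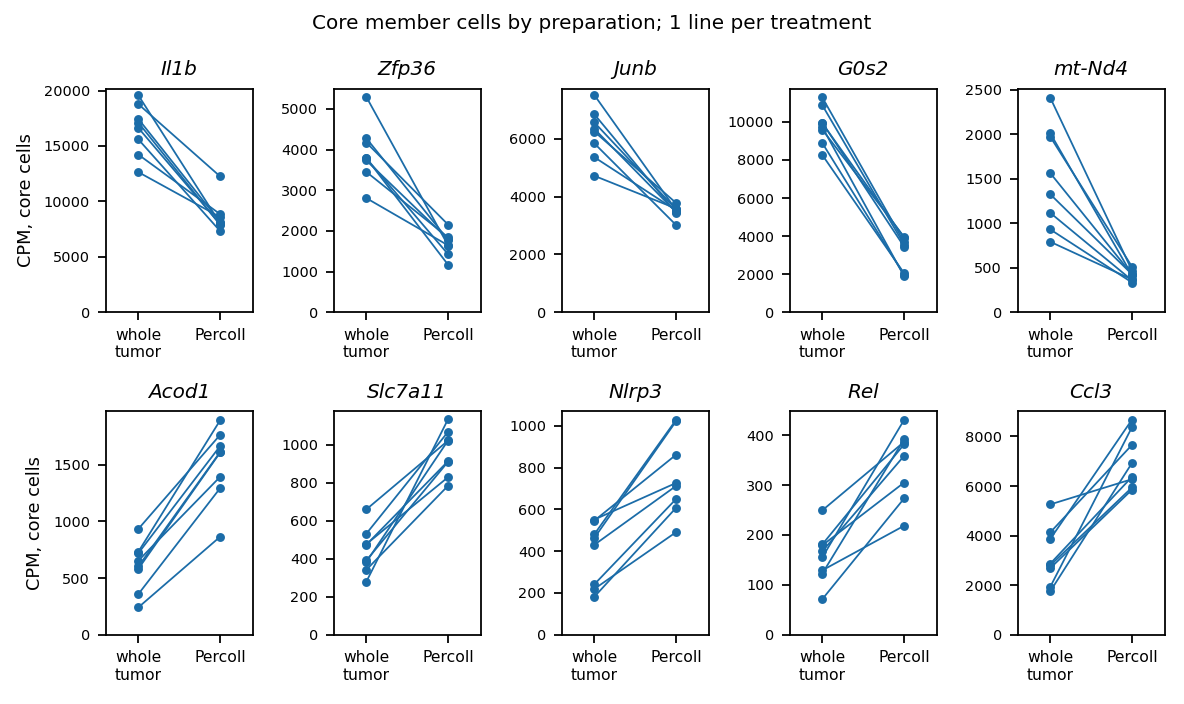
CPM in core cells (y axes, from 0) of 10 genes in the whole-tumor and the Percoll library of each treatment (x axes), joined by a line. Il1b, Zfp36, Junb, G0s2, and mt-Nd4 fall along all 8 lines, and Acod1, Slc7a11, Nlrp3, Rel, and Ccl3 rise along all 8.

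The preparations were compared in the same way in other cells of these libraries. The 20 named genes were those of smallest *P* in core cells, so their counts are a description. The difference of the preparation effect between core cells and C1q-high macrophages was called for 14 of the 20, against 280 of 9750 genes in all (2.87%), and the sign was the same for 14 of the 19 with a value in both. Il1b, of opposite sign, had a log2 difference of -0.94 in core cells and 0.41 in macrophages (difference of effects -1.18, adjusted *P* = 1.85e-15), Zfp36 -1.23 and 0.20 (-1.26, adjusted *P* = 4.29e-19), and mt-Nd4 -1.79 and -0.34 (-1.29, adjusted *P* = 1.86e-15).

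Against Retnlg-positive neutrophils the effects differed for 4 of the 20 genes, against 19 of 2109 in all (0.901%), and the sign was the same for 17 of the 18 with a value in both. In Retnlg-positive neutrophils the log2 difference was -1.04 for Il1b, -0.90 for Zfp36, -0.94 for Junb, and -1.84 for G0s2, and none of these effects was called different from the core. Of the 20, the genes that differed were Acod1 (1.33 in core cells and 0.44 in Retnlg-positive neutrophils, adjusted *P* = 0.00296), Ier3 (0.94 and -0.38, adjusted *P* = 4.36e-06), mt-Nd4 (-1.79 and -2.96, adjusted *P* = 0.0419), and mt-Nd3. Outside the 20, mt-Nd1, mt-Nd2, mt-Nd4l, mt-Nd5, mt-Co2, mt-Co3, and mt-Cytb were also called different, each falling less in core cells. A gene that missed the threshold in this comparison is not shown to change alike, since the Retnlg-positive neutrophils were fewer, at 39 to 119 cells per library before the limits on depth and class II.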

How the data were processed

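The authors aligned 5′ reads and deposited raw UMI counts per gene and barcode for all 16 RNA libraries in 1 matrix of 32285 genes, without normalization, and T cell receptor contigs of the Percoll libraries. Per the submitters' processing notes, Cell Ranger 4.0.0, Seurat, and the build mm10 were used. The number ending a barcode gave its library. Deposited libraries held between 77132398 and 176233225 UMIs. Of the members, 377 (14.52%) had a barcode sequence that also occurred in another library, and 3 sequences were members in 2 or more libraries.

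UMIs of the members were summed per pool (2 libraries of a treatment) and tested with edgeR 4.0.16 (quasi-likelihood, TMM, filterByExpr, R 4.3.3) with the 3 agents as terms. The alternative fits of the agents on 16 libraries had no term that joined the 2 libraries of a treatment. Preparation was tested on 16 library sums with the treatment as the block, since both libraries of a treatment may hold the same mice. Adjusted *P* values are Benjamini-Hochberg over all genes tested, and calls also required an absolute log2 difference above 0.5. The 12 genes of the rule were never called. Shares were compared by exact permutation, called at an unadjusted *P* below 0.05. CPM in treatment and preparation comparisons is TMM-normalized, and CPM beside other cells is of plain sums. Because 5′ UMIs carry no length, levels of different genes were not compared. On simulated 2-fold changes, edgeR recovered 55.33% (PancVAX, all members, 9515 genes) and 67.17% (PancVAX, core, 5140 genes), with 19 false calls beside 109 true ones and 6 beside 133. For anti-CTLA-4 over all members (9532 genes) it recovered 50%.

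Named genes were the rule's genes, up to 10 rises and 10 falls of smallest *P* per comparison with a mean of at least 50 CPM, up to 4 members per list, and the 15 largest and smallest ratios beside Retnlg-positive neutrophils. The members and the 29 gene lists were chosen with earlier results of these data known, and the core and the preparation comparison after seeing the present values. Retnlg-positive neutrophils had at least 2 Retnlg UMIs, under 2 of Siglecf and Ltc4s, and otherwise the same gate. Cells with neither selecting gene met the rule with no Siglecf or Ltc4s UMI. C1q-high macrophages had at least 10 C1q UMIs per 10000, Csf1r, and none of the neutrophil receptors. The wider gate required 2 receptor UMIs. Doublets were scored with scrublet (scanpy 1.11.5) and kept in the main results. It marked 2891 barcodes (2.176%) but 0 of 11685 in PancVAX + Anti-PD-1 Percoll, where it did not work. Binomial intervals (scipy 1.17.1) cover counting error only. Tumor growth, ELISpot, and flow cytometry were not analysed here. Some genes that the rule names are not reported here.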

Additional observations from a re-analysis of the deposited data

Results flagged for a closer look

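In 92 groups of 4 or 8 values, 11 held a sample far from the others by Dixon's criterion, which chance alone exceeds in about 1 of 20 groups. No explanation was tested for any of them.

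In core cells the Anti-CTLA-4 pool stood apart from the other pools without PancVAX in Mt2 (178 CPM against 80.7 to 91.2 CPM) and in Col3a1 (299 CPM against 0.0 to 43.2 CPM). The PancVAX + Anti-CTLA-4 pool stood apart from the other vaccinated pools in Col3a1 (80.0 CPM against 4.73 to 12.8 CPM) and in AW112010 (78.9 CPM against 225 to 250 CPM). Sparc in the Anti-PD-1 + Anti-CTLA-4 pool was at 54.6 CPM, against 26.0 to 26.6 CPM in the other pools with anti-PD-1.

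Among single libraries, members made up 13.2% of the wider neutrophil gate in the Anti-CTLA-4 whole tumor, against 19.7% to 25.4% in the other whole tumors. Ppp1r3b was at 247 CPM in the core cells of the Anti-PD-1 whole tumor, against 79.6 to 148 CPM. The PancVAX + Anti-CTLA-4 Percoll library had the highest Il1b (12253 CPM against 7323 to 8847 CPM) and Tuba1c (595 CPM against 269 to 372 CPM) of the Percoll libraries. The PancVAX + Anti-PD-1 Percoll library had the lowest Junb (3014.5 CPM against 3440 to 3779 CPM) and the lowest median mitochondrial share (0.525% against 0.596% to 0.656%).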

How the results depend on the processing

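The preparation changes in core cells held under every alternative tried for them except the widening to all members: each of the 20 named genes passed in the same direction without the replicate block, with Siglecf required, and with any pool left out, and 16 of 20 did so over all members. The called genes numbered 422 with the pairing of libraries by treatment, 390 without the replicate block, 363 to 431 with 1 pool left out, and 186 over all members. The difference in share between preparations had an exact permutation *P* of 0.0255 with no replicate block, and as a share of the wider gate it was 0.249 points (*P* = 0.797). For the agents, a replicate block of pools matched on the other 2 agents, added after the data were seen, gave 1, 0, and 4 calls over all members and 12, 18, and 11 in the core for the vaccine, anti-PD-1, and anti-CTLA-4. Over all members Ptp4a1 and Rab11fip1, and in the core Nr4a2 and mt-Nd4 with PancVAX and C3 and Irf7 with anti-CTLA-4 lost their calls under this block. Over the 4 matched pairs of shares, sign flips cannot give a *P* below 0.125, and gave 0.125 for PancVAX.

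The agents' calls were few and unstable. For PancVAX the count over all members was 96 in DESeq2, 132 without a filter on low counts, 38 under the authors' limits on cells, 14 with C1q absent or with cells thinned to 1000 UMIs, 1 without doublets or with Siglecf required, and 0 without TMM, in 16 libraries, in whole tumors, or in Percoll. In the core it was 12, 11 in 16 libraries, 9 in whole tumors, 0 in Percoll, 7 without the Anti-PD-1 pool, and 0 without the Anti-PD-1 + Anti-CTLA-4 pool. For anti-PD-1 it was 2 in DESeq2, 3 without the filter, 3 in whole tumors, 5 under the authors' limits, 4 with C1q absent, and 1 when thinned, and in the core 9, 1 in 16 libraries, 6 in whole tumors, and 4 in Percoll. For anti-CTLA-4 it was 8 in DESeq2, 2 without TMM, 3 without the filter, 15 under the authors' limits, 2 without doublets, 16 with C1q absent, 9 when thinned, and 0 in 16 libraries or either preparation, and in the core 10, 1 in 16 libraries, 0 in whole tumors, and 3 in Percoll. With 1 pool left out the counts ran from 0 to 363, 0 to 2, and 1 to 17 over all members and from 0 to 14, 4 to 28, and 0 to 20 in the core for the 3 agents in turn.

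The share difference with PancVAX was 0.801 points under the authors' limits (higher in 2 of 4 matched pools, *P* = 0.343), 0.474 in Percoll (*P* = 0.229), 0.473 to 0.849 points with 1 pool left out and 0.568 (*P* = 0.0286, exact permutation) with Siglecf required. For anti-PD-1 the share difference turned to 0.0686 points in whole tumors, to 0.162 in the wider gate, and ran from -0.459 to 0.118 with 1 pool left out. In the wider gate Siglecf turned to 0.271 with anti-PD-1 in whole tumors and to 0.0117 with anti-CTLA-4 in core cells, and with PancVAX reached 0.615 in DESeq2 and ran from 0.509 to 0.75 with 1 pool left out. Ltc4s turned to -0.142 with PancVAX in core cells and to -0.157 with anti-PD-1 in Percoll. Retnlg turned to -0.0652 with anti-CTLA-4 in whole tumors, and with 1 pool left out ran from -0.547 to 0.0348, -0.203 to 0.452, and -0.193 to 0.478 for the vaccine, anti-PD-1, and anti-CTLA-4 in turn. Col3a1 and Sparc turned to 0.32 and 0.05 with anti-PD-1 and to -1.83 and -0.50 with anti-CTLA-4 over all members. The cause was not tested for any of these.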

Other observations

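Other gene groups of the core cells held few or no calls with treatment. Over all 5301 genes tested in core cells, 0.226% were called for PancVAX, 0.17% for anti-PD-1, and 0.189% for anti-CTLA-4. At such shares a short list without a call is no result about its genes. Of 15 MHC class I presentation genes (the peptide-presenting molecules and their transporters), none passed with any agent, and their median log2 differences were 0.0 with PancVAX, 0.16 with anti-PD-1, and -0.11 with anti-CTLA-4. Of 13 growth factor receptor and survival genes, none passed with any agent (medians 0.08, 0.14, and -0.03), and of 21 hypoxia and glycolysis genes tested none did either (medians -0.08, -0.01, and -0.01). The same was true of 9 chemokine and adhesion receptor genes (medians 0.02, 0.14, and -0.10) and of 8 leukotriene and prostaglandin enzymes (medians -0.02, 0.01, and 0.21). Of 7 MHC class II and costimulation genes tested none passed, with medians of -0.40, 0.01, and 0.11. The 8 heat shock and chaperone genes, fixed as a list of dissociation stress, had medians of -0.09, -0.31, and 0.41. Of these only Hspa1a passed, lower with PancVAX and higher with anti-CTLA-4, and 7 of the 8 differences were above 0 with anti-CTLA-4 and none with anti-PD-1.

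Between preparations, 8.66% of all genes were called higher and 4.87% lower. Hypoxia and glycolysis genes showed 1 rise (Egln3) and 1 fall (Eno1) among 18 tested, with a median of 0.05. None of 14 MHC class I genes tested passed (median 0.14), and among 20 interferon-stimulated genes tested Slfn4 and Irgm1 rose after Percoll (median 0.23). Of 5 heat shock and chaperone genes tested, Hspa5 and Hsp90aa1 rose and Hspe1 fell.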
